A study of Mus musculus with 12 samples.

Results

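The dependence of the islet-spleen difference on the T cell receptor (TCR) was measured in regulatory T cells (Tregs), the Foxp3-expressing cells that restrain immune responses. For each gene, the islet-minus-spleen difference in Tregs with the TCR 12-4.4m1 was subtracted from the islet-minus-spleen difference in Tregs with the TCR 4-8. This difference of differences is called the interaction here, is on the log2 scale, and is above 0 where the gene stood higher in islets relative to spleen with 4-8 than with 12-4.4m1. The genes were all those with a mean normalized count of at least 10 in both tissue tables, 8298 of 24417 genes. The values were RNA-seq values from Tregs of NOD mice, a strain prone to autoimmune diabetes, at 6.8 weeks of age. All 4 groups shared this strain and age and came from retrogenic mice, whose bone marrow had been given genes of introduced TCRs, here for insulin. The groups were islet Tregs with 4-8 (high affinity), splenic Tregs with 4-8, islet Tregs with 12-4.4m1 (low affinity) and splenic Tregs with 12-4.4m1, with 3 libraries each. Each affinity was represented by 1 TCR, so affinity and any other property of these receptors cannot be told apart. Nothing in the labels ties libraries to separate mice, so p-values cover the spread among these libraries, which may in part be technical. Transcripts linked to sex, given at the end of the Results, differed between libraries of a group.

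A Treg that meets its antigen through the TCR switches on early transcription factors, surface receptors and effector molecules. Among the receptors is Lag3, an inhibitory receptor that binds MHC class II and is known as a marker of activated and IL-10-producing T cells. Insulin is made in the islets and not in the spleen, so the comparison asks whether the change of Tregs between the tissues differed between a high-affinity and a low-affinity receptor for the same antigen.

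Lag3 was the only gene whose interaction passed an adjusted p of 0.05 (limma, Benjamini-Hochberg over all 8298 genes). It was higher in islets than in spleen with both TCRs, and more so with 4-8. This was 1 gene of 8298 (0.0121%) toward 4-8, and 0 genes (0%) passed toward 12-4.4m1 in limma. At an unadjusted p under 0.05 there were 248 genes (2.99%) toward 4-8 and 211 (2.54%) toward 12-4.4m1, or 5.53% of all genes together. The authors' deposited DESeq2 tables, subtracted from each other, also gave 1 gene toward 4-8, the cytokine gene Il10, and 1 toward 12-4.4m1, the heat shock gene Hspa1a, whose interaction in the rlog values was -0.16. For Il10 with 12-4.4m1 the DESeq2 log2 fold change was 0.70, below the islet-minus-spleen difference of 1.57 in the rlog values. For Hspa1a with 4-8, a gene named after its values were seen, it was 3.33, below 4.17 in the rlog values. The 12-4.4m1 fold change of Hspa1a was 6.36, above 4.33 in the rlog values. The authors' FPKM values, explained with Lag3 below, gave Hspa1a a log2 ratio of ratios of -0.26 after adding 1 to each value. The cause of the gaps between the DESeq2 and rlog values was not tested. A second count needed no model. It took the genes for which every islet-spleen pair of libraries of one TCR lay beyond every pair of the other, and found 102 genes (1.23%) toward 4-8 and 94 (1.13%) toward 12-4.4m1.

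Across genes the islet-minus-spleen differences of the TCRs were related, with Pearson's r of 0.71 and Spearman's rho of 0.57 over the 8298 genes. This is a description across genes, which are not independent replicates, and the libraries of the 2 differences were distinct. The interquartile range of the differences was 0.41 with 4-8 and 0.39 with 12-4.4m1. Most interactions were small: the 5th percentile was -0.45 and the 95th was 0.48, and 15 genes had an interaction beyond 1 in size, 10 toward 4-8 and 5 toward 12-4.4m1. The median 95% interval of an interaction reached 0.54 to either side, before adjustment for 8298 genes. The gene Plek, with an interaction of 1.62 and an SE of 0.40, did not pass the adjusted threshold (limma adjusted p = 0.395). The gene Crem, at 0.98 with an SE of 0.24 against a median SE of 0.26, did not pass either (limma adjusted p = 0.395). For a gene with an SE near the median, differences well above 0.54 could thus go uncalled with 3 libraries per group. The immediate early gene Fos, with an islet-minus-spleen difference of 4.26 with 4-8 and 4.46 with 12-4.4m1, had an interaction of -0.20 (95% interval -0.75 to 0.35). In the authors' deposited DESeq2 tables the fold changes of Fos were 6.44 and 4.74, whose difference of 1.71 has the opposite sign. The authors' FPKM values, explained with Lag3 below, gave Fos a log2 ratio of ratios of -1.01 after adding 1 to each value. That has the sign of the rlog interaction, and the cause of the reversal in the DESeq2 values was not tested.

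**Figure D1:**
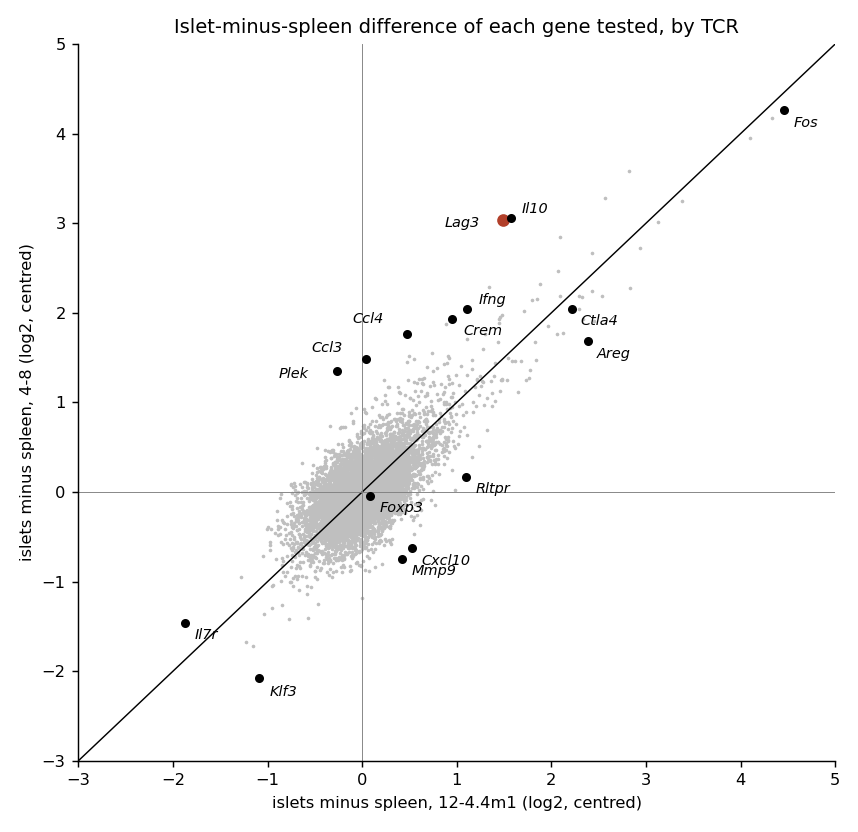
Islet-minus-spleen difference (log2, centred on the median gene) with 12-4.4m1 on the x axis and with 4-8 on the y axis, for the 8298 genes tested; the diagonal marks an equal difference. Lag3, in red, is the gene past an adjusted p of 0.05; Fos and Ctla4 lie near the diagonal, Ccl3, Ccl4 and Plek above it, and Cxcl10 and Mmp9 below it.

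Lag3 (chromosome 6, 124904361 to 124911705, minus strand, GRCm38) was measured as an rlog value, the log2 count that DESeq2 shrinks where counts are low. In the 4-8 table it was 10.14, 9.94 and 10.72 in islets and 7.03, 7.37 and 7.35 in spleen. In the 12-4.4m1 table the values were 6.31, 6.52 and 6.84 in islets and 4.94, 5.18 and 5.11 in spleen. Every islet library was above every spleen library of its TCR. The islet-minus-spleen difference was 3.03 with 4-8, an 8.20-fold higher level in islets, and 1.48 with 12-4.4m1, a 2.80-fold higher level. Over single library pairs the difference ran from 2.59 to 3.71 with 4-8 and from 1.13 to 1.90 with 12-4.4m1, with no overlap. The interaction was 1.55 ± 0.26 (SE, 95% interval 1.01 to 2.09, limma adjusted p = 0.018), a 2.93-fold difference between the fold changes.

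The Lag3 interaction had the same sign in the other deposited tables. In the authors' deposited table of FPKM (fragments scaled to transcript length and library size), which has 1 value per group, Lag3 was 674 in islets and 36.7 in spleen with 4-8, and 72.0 and 10.3 with 12-4.4m1. The log2 ratio of these ratios was 1.47 after adding 1 to each value. All log2 ratios of FPKM ratios given here were taken after adding 1 in the same way. In the authors' deposited DESeq2 tables the islet-over-spleen log2 fold change of Lag3 was 3.99 ± 0.22 (SE) with 4-8 and 2.29 ± 0.38 (SE) with 12-4.4m1. In the tables that compare the TCRs within a tissue, Lag3 was 2.55 higher with 4-8 in islets and 0.71 higher in spleen, which gave an interaction of 1.84 (limma adjusted p = 0.00115). Among the 3 columns of 4-8 in that islet table, 1 carries a name that no library title matches, and islet 4-8 replicate 3 has no column of its name, so this fit may not rest on the same libraries. The Lag3 difference between the TCRs was above 0 in both tissues and larger in islets. In bulk libraries, fewer cells that express a gene and less of its RNA per cell cannot be told apart.

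The call of Lag3 depended on single libraries. Its interaction was above 0 in all 27 alternative settings, from 1.33 to 1.84, and passed the threshold in 15 of the 26 alternative fits that had a test. It did not pass without islet 4-8 replicate 3 (limma adjusted p = 0.0822), spleen 4-8 replicate 1 (0.17), islet 12-4.4m1 replicate 1 (0.182) or 2 (0.0854), or spleen 12-4.4m1 replicate 2 (0.114) or 3 (0.0962). It also missed the threshold in limma without a mean-variance trend (adjusted p = 0.0717) and without the 3 islet libraries titled Treg (0.108), all other libraries being titled R. That fit keeps 1 islet library with 12-4.4m1, replicate 3, which is assumed to vary like the other groups, and all values given without the libraries titled Treg rest on it. Without the spleen libraries numbered 2, whose labels list the table of the other TCR, the adjusted p was 0.196. With both tables scaled to an equal interquartile range it was 0.0584, and with the authors' deposited DESeq2 fold changes 0.147.

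**Figure D2:**
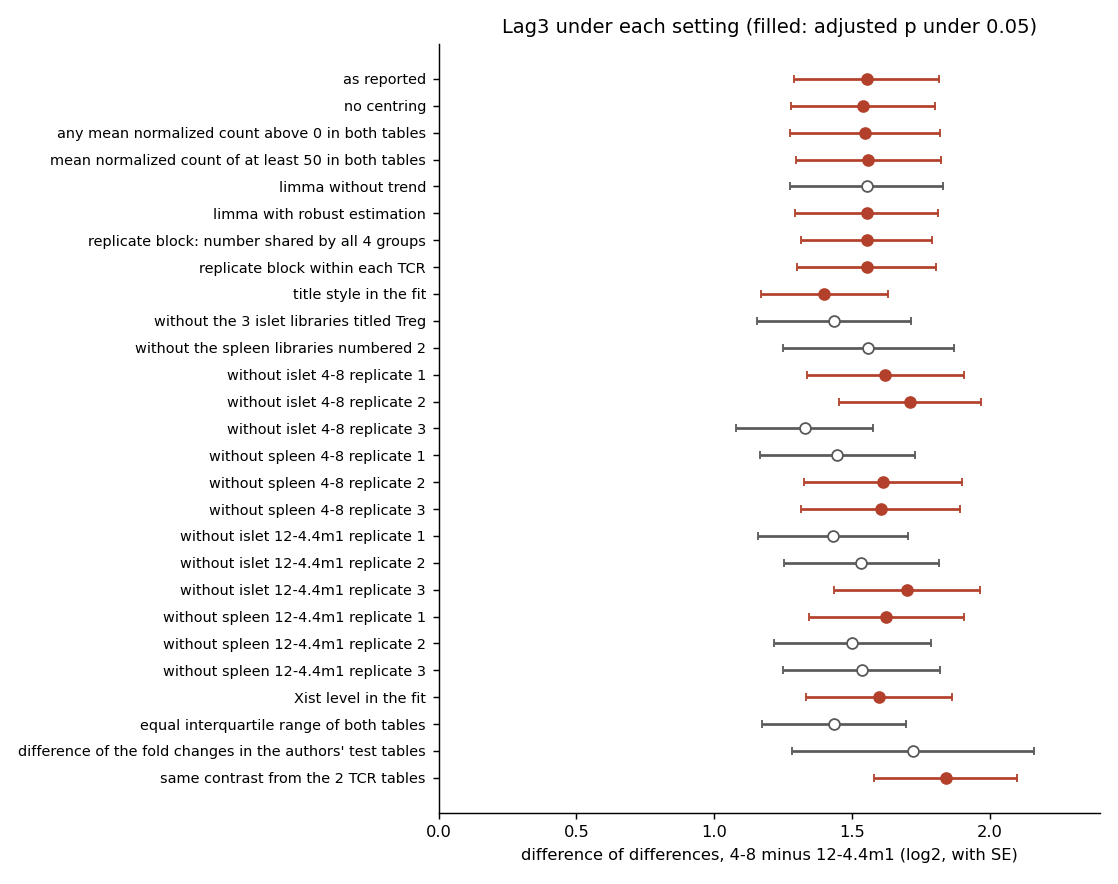
Interaction of Lag3 (log2, point with SE) as reported and under each alternative fit on the y axis; filled red points have an adjusted p under 0.05 and open points do not. All points lie between 1.33 and 1.84 and their SE bars stay above 0.

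The mean normalized count of Lag3 was 924 in the 4-8 table and 74.8 in the 12-4.4m1 table. The tables were normalized and shrunk separately, and shrinkage is stronger at lower counts. The ratio of the mean normalized count in the 4-8 table to that in the 12-4.4m1 table had a median of 1.37 over all genes tested, 4.73 over the 12 genes ranked first toward 4-8 and 1.16 over the 12 ranked first toward 12-4.4m1. The part of this gap in the interactions toward 4-8 was not tested. The FPKM values carry no such shrinkage and are given beside the genes described by library. Their ratios were taken after adding 1, which changes a ratio most where the values are low.

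After Lag3, the genes toward 4-8 were ranked by unadjusted p among the genes of that direction, and none of the next 11 passed the threshold. They included Plek, Dscc1, Crem, Fam20a, the chemokine genes Ccl4 and Ccl3, and Il10, with interactions from 0.92 to 1.62 and limma adjusted p from 0.395 to 0.646. Of the 12, Lag3 included, 8 had islet-spleen pairs of the TCRs that did not overlap, against 1.23% of all genes tested. The 12 were ranked by the p of the same contrast, so this count is not separate evidence.

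Ccl4 and Ccl3 encode the chemokines MIP-1beta and MIP-1alpha, and lie near each other on chromosome 11. Ccl4 was 8.83, 9.33 and 9.03 in islets and 7.37, 7.34 and 7.24 in spleen with 4-8. With 12-4.4m1 it was 5.63, 4.95 and 5.44 in islets and 4.38, 5.63 and 4.58 in spleen. The tissues were apart with 4-8 and overlapped with 12-4.4m1, where spleen replicate 2 was as high as the highest islet library. The Ccl4 interaction was 1.29 ± 0.33 (SE, limma adjusted p = 0.395), and the log2 ratio of FPKM ratios in the authors' deposited table was 1.84.

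Ccl3 was 7.12, 8.11 and 6.57 in islets and 5.92, 5.35 and 6.13 in spleen with 4-8. Under 12-4.4m1 the values were 3.69, 3.71 and 4.23 in islets and 3.56, 4.40 and 3.57 in spleen, again with spleen replicate 2 highest of its group. The Ccl3 interaction was 1.44 ± 0.40 (SE, limma adjusted p = 0.572). The log2 ratio of FPKM ratios in the authors' deposited table was 2.57 for Ccl3. Without the 3 islet libraries titled Treg the interaction was 0.67, with 1 islet library left for 12-4.4m1, and the mean normalized count of Ccl3 was 16.1 in the 12-4.4m1 table against 140 in the 4-8 table.

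Il10, the gene of an inhibitory cytokine of Tregs, was 8.20, 6.93 and 8.46 in islets and 4.72, 5.19 and 4.57 in spleen with 4-8. The 12-4.4m1 libraries were at 4.87, 4.97 and 6.23 in islets and 3.58, 3.99 and 3.79 in spleen. Islet libraries were above spleen libraries with both TCRs, and the library pairs of the TCRs overlapped. The Il10 interaction was 1.49 ± 0.43 (SE, limma adjusted p = 0.646). Its size differed with the deposited table. The FPKM of Il10 was 262 in islets and 7.28 in spleen with 4-8 and 71.7 and 2.47 with 12-4.4m1. After adding 1 to each value, the log2 ratio of ratios was 0.60. In the authors' deposited DESeq2 tables, its islet-over-spleen log2 fold change was 4.45 ± 0.34 (SE) with 4-8 and 0.70 ± 0.44 (SE) with 12-4.4m1. These gave a difference of 3.77 (normal test on the summed squared SEs, Benjamini-Hochberg adjusted p = 7.38e-08). That difference rests on the fold change of 0.70, against an islet-minus-spleen difference of 1.57 in the rlog values with 12-4.4m1. The cause of this gap was not tested.

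Plek, which encodes the protein kinase C substrate pleckstrin, was 6.02, 7.18 and 6.06 in islets and 4.95, 4.87 and 5.45 in spleen with 4-8. For 12-4.4m1 the level was 2.89, 3.73 and 2.83 in islets and 2.98, 4.03 and 3.26 in spleen. Islets were above spleen with 4-8, and the tissues overlapped with 12-4.4m1. The Plek interaction was 1.62 ± 0.40 (SE, limma adjusted p = 0.395), and it passed in 1 of 25 alternative fits, the one with the style of the library titles as a term (adjusted p = 0.0214). The log2 ratio of FPKM ratios in the authors' deposited table was 3.10 for Plek and 1.37 for Crem. Crem, a cAMP-responsive transcription factor gene, was 7.59, 7.80 and 7.76 in islets and 5.87, 5.89 and 5.65 in spleen with 4-8. With 12-4.4m1 it was 6.38, 6.53 and 6.61 in islets and 5.71, 5.24 and 5.71 in spleen. The Crem interaction was 0.98 ± 0.24 (SE, limma adjusted p = 0.395), with no overlap of the library pairs. Of the other genes toward 4-8, Hilpda, a lipid droplet gene induced by hypoxia, had an islet-minus-spleen difference of 2.29 with 4-8 and 1.34 with 12-4.4m1. Tnip3, a brake on NF-kB signalling, had 0.89 and -0.12.

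Toward 12-4.4m1 the 12 genes ranked first had interactions from -1.17 to -0.63 and limma adjusted p from 0.395 to 0.646, none past the threshold. Of these, 9 had library pairs that did not overlap, against 1.13% of all genes tested, and again the ranking used the same contrast. The 12 included genes of the interferon response (Cxcl10, Ifi27l2a) and of T cell quiescence and lineage (Klf3, Bcl11b).

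Cxcl10, an interferon-induced chemokine gene whose product binds Cxcr3, was 4.87, 4.22 and 4.25 in islets and 4.83, 5.08 and 5.36 in spleen with 4-8. The 12-4.4m1 libraries were at 5.76, 5.89 and 5.61 in islets and 4.91, 5.10 and 5.67 in spleen. Islets were lower than spleen with 4-8 apart from 1 islet library, and higher with 12-4.4m1 apart from 1 spleen library that overlapped the islet range. The Cxcl10 interaction was -1.16 ± 0.31 (SE, limma adjusted p = 0.518). Its FPKM in the authors' deposited table was 12.0 in islets and 35.5 in spleen with 4-8, against 69.1 and 37.1 with 12-4.4m1, a log2 ratio of ratios of -2.37.

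The chemokine genes Ccl3 and Cxcl10 stood on opposite sides, and their promoters are shown to set the letters around each start site beside the values. The sequences are from RefSeq on GRCm38.p6, run from 250 bases before to 50 bases after the start of transcription, and are written 5′ to 3′ on the gene's strand. Such windows were matched for 54 of the 72 genes named. Capitals mark matches, on either strand, to the core of the interferon response element (GAAANNGAA), to the GAS element (TTCNNNGAA) or to the AP-1 site (TGANTCA). These motifs were found in 8.56%, 8.30% and 7.81% of 32851 promoter windows. The Cxcl10 window is chr5:92348840-92349139 on the minus strand, and the Ccl3 window is chr11:83649329-83649628 on the minus strand.
Cxcl10: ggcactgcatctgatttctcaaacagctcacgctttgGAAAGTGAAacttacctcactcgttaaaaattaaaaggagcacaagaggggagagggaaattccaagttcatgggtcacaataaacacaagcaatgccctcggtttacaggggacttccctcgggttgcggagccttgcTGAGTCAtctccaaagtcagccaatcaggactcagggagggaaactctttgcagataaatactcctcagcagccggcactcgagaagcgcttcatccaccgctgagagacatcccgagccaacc
Ccl3: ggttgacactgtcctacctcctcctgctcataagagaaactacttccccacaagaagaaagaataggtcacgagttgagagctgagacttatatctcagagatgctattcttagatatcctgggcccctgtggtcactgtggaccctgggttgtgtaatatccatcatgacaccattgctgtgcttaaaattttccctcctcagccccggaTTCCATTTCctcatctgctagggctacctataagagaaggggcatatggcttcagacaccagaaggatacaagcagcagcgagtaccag
Cxcl10 held 1 match to the interferon response element core, GAAAGTGAA at position -213 from the start, and 1 to the AP-1 site, TGAGTCA at -74. Ccl3 held 1 match to the interferon response element core on the opposite strand, printed as TTCCATTTC, at -39. Neither window held a GAS match, and no matches overlapped. A match describes letters and does not show that a factor bound there.

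Klf3, a transcription factor gene of resting lymphocytes, was 6.01, 6.46 and 5.90 in islets and 8.53, 7.96 and 8.18 in spleen with 4-8. For 12-4.4m1 the level was 6.59, 6.53 and 6.16 in islets and 7.77, 7.51 and 7.27 in spleen. Islets were below spleen with both TCRs, by 2.08 with 4-8 and by 1.09 with 12-4.4m1 on the log2 scale, and the library pairs overlapped. The Klf3 interaction was -0.99 ± 0.27 (SE, limma adjusted p = 0.548). Mmp9, which encodes a matrix metalloproteinase, was 5.13, 5.47 and 5.12 in islets and 5.88, 6.20 and 5.92 in spleen with 4-8. With 12-4.4m1 it was 4.20, 4.69 and 4.98 in islets and 4.50, 3.89 and 4.22 in spleen. The Mmp9 interaction was -1.17 ± 0.30 (SE, limma adjusted p = 0.395), with islets below spleen in every library with 4-8 and overlapping tissues with 12-4.4m1. The log2 ratio of FPKM ratios in the authors' deposited table was -1.60 for Klf3 and -2.22 for Mmp9. Bcl11b, a transcription factor gene of the T cell lineage, had an islet-minus-spleen difference of -0.55 with 4-8 and 0.17 with 12-4.4m1. Rltpr, which encodes a partner of CD28 signalling, had an interaction of -0.93. Gpr183, a receptor for oxysterols that positions lymphocytes, had -0.87 and -0.12.

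**Figure D3:**
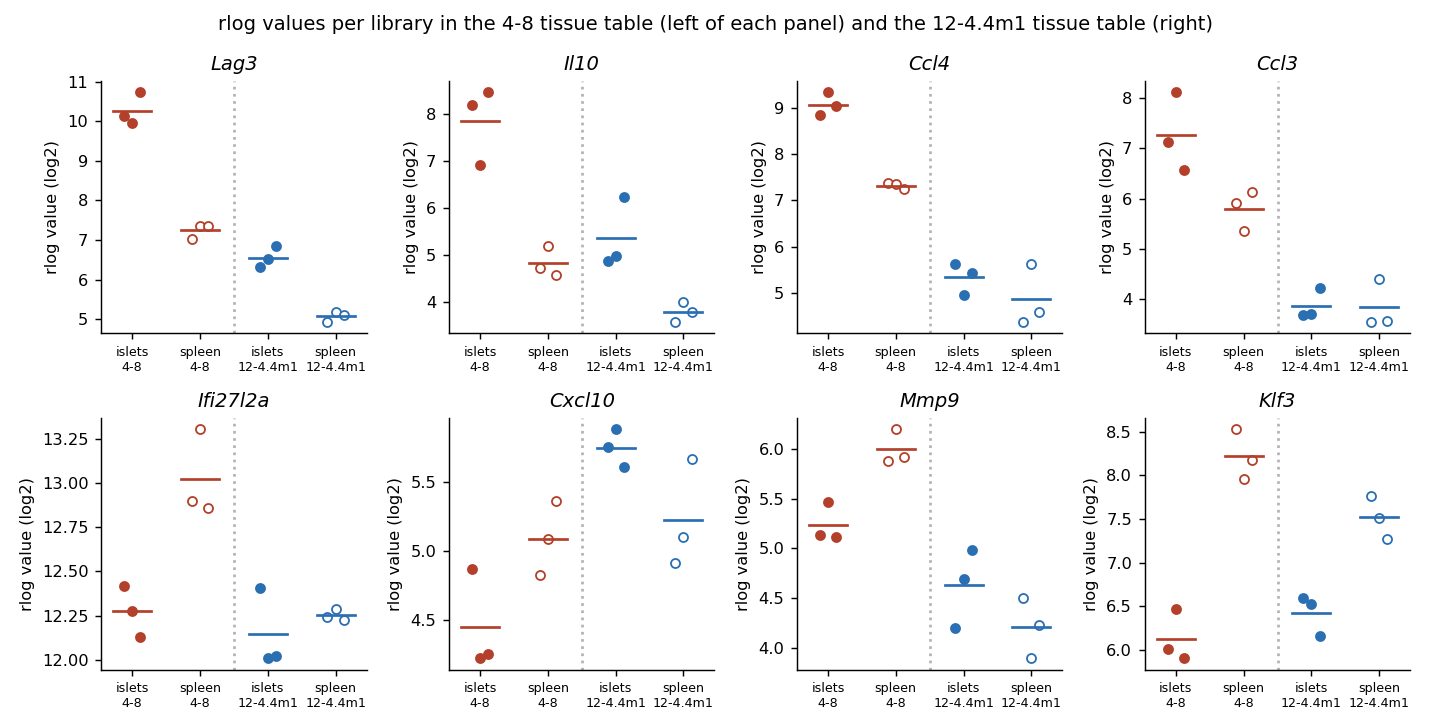
rlog values (log2, y axis) of 8 genes in each of the 12 libraries, in islets (filled) and spleen (open) with 4-8 (red, left of the dotted line) and 12-4.4m1 (blue, right); bars are group means, and levels are not comparable across the dotted line. Islets stand above spleen for Lag3 and Il10 with both TCRs; for Ccl4 and Ccl3 the tissues are apart with 4-8 and overlap with 12-4.4m1; for Ifi27l2a islets are below spleen with 4-8 and the tissues overlap with 12-4.4m1.

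**Figure D4:**
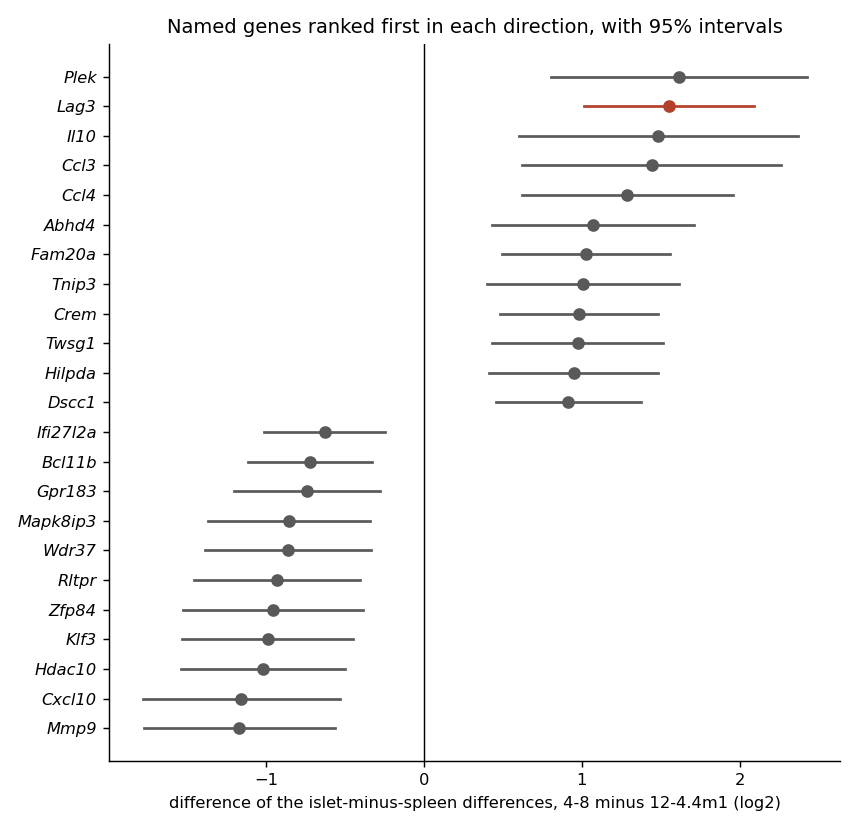
Interaction (log2, x axis) with its 95% interval for named genes ranked first in each direction. Lag3, in red, is past an adjusted p of 0.05, and the intervals of the others exclude 0 before adjustment for 8298 genes only.

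The genes were then read by role. Among co-inhibitory receptors, 7 of 10 listed genes were tested. Lag3 passed, and 4 of the 7 had an interaction above 0, as did 49.9% of all genes, and their median was 0.37. Pdcd1, which encodes PD-1, had 1.26 with 4-8 and 0.60 with 12-4.4m1 (interaction 0.66, limma adjusted p = 0.822). Tigit, a receptor for nectin-family ligands, had an interaction of 0.47 (adjusted p = 0.909). Ctla4, the CD80 and CD86 receptor through which Tregs restrain dendritic cells, had differences of 2.04 and 2.22 and an interaction of -0.17 (limma adjusted p = 0.957). Of 10 costimulatory receptors tested, 8 had an interaction above 0, with a median of 0.21, and Tnfrsf25, the receptor of TL1A, was at -0.79 (adjusted p = 0.871).

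Suppressive mediators were tested for 12 of 15 listed genes, and their median interaction was -0.01. At an unadjusted p under 0.05 (2.99% of all genes toward 4-8 and 2.54% toward 12-4.4m1), 3 were toward 4-8 (Lag3, Il10 and Itgb8, the last a subunit of the integrin that activates TGF-beta) and 1 toward 12-4.4m1. That 1 was Areg, which encodes amphiregulin, a growth factor of tissue-repair Tregs. Areg was 5.87, 5.05 and 6.22 in islets and 3.97, 4.22 and 3.95 in spleen with 4-8. Under 12-4.4m1 the values were 7.40, 7.61 and 7.87 in islets and 4.91, 5.36 and 5.45 in spleen. The Areg interaction was -0.71 ± 0.32 (SE, limma adjusted p = 0.878), was -0.38 without islet 4-8 replicate 2, and its log2 ratio of FPKM ratios was 0.05. Of 10 tissue-repair genes tested, none passed, and the median was -0.03.

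Th1 genes, those of interferon-gamma-producing T cells, were tested for 13 of 15 listed genes, with 9 above 0 and a median of 0.18. At an unadjusted p under 0.05, Ccl3, Ccl4 and Ifng were toward 4-8 (2.99% of all genes) and Cxcr3 toward 12-4.4m1 (2.54%). Ifng, named after its value was seen, was 7.33, 7.98 and 7.41 in islets and 5.59, 5.55 and 5.51 in spleen with 4-8. With 12-4.4m1 Ifng was 5.53, 5.08 and 5.05 in islets and 4.08, 4.32 and 3.93 in spleen. Its library pairs did not overlap, and its interaction was 0.93 ± 0.28 (SE, limma adjusted p = 0.646), with a log2 ratio of FPKM ratios of 0.35. Cxcr3, the receptor of Cxcl10 and also named after its value was seen, had -0.38 with 4-8 and 0.29 with 12-4.4m1. Among 19 chemokine receptor and homing genes tested, 3 were toward 12-4.4m1 at an unadjusted p under 0.05 (2.54% of all genes): Cxcr3, Gpr183 and the follicle-homing receptor Cxcr5. Cxcr5 had an islet-minus-spleen difference of -0.28 with 4-8 and 0.55 with 12-4.4m1, with no overlap of library pairs (interaction -0.83, adjusted p = 0.667).

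Interferon-induced genes were tested for 20 of 22 listed genes, and none passed. Their interaction was below 0 in 15 and above 0 in 5, with a median of -0.15. At an unadjusted p under 0.05 there were 3 genes, all toward 12-4.4m1 (2.54% of all genes), Ifi27l2a and Oas2 among them. The library pairs did not overlap in 3 genes, also all toward 12-4.4m1 (1.13% of all genes), among them Ifi27l2a and the interferon-inducible GTPase gene Igtp. Oas2 and Igtp were named after their values were seen. Ifi27l2a, an interferon-stimulated gene, was 12.42, 12.28 and 12.13 in islets and 12.90, 13.31 and 12.86 in spleen with 4-8. The 12-4.4m1 libraries were at 12.41, 12.01 and 12.02 in islets and 12.24, 12.29 and 12.23 in spleen. The Ifi27l2a interaction was -0.63 ± 0.19 (SE, limma adjusted p = 0.646), and the log2 ratio of FPKM ratios was -0.83. The list ran from -0.75 (Oas2) to 0.55 (Ifit1).

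Transcription factors and receptors of resting T cells were all tested (16 of 16), and none passed. The interaction was below 0 in 12 of them, with a median of -0.26, and 4 had an unadjusted p under 0.05, all toward 12-4.4m1 (2.54% of all genes): Klf3, Satb1, Tcf7 and Lef1. Tcf7 and Lef1, partner transcription factors of naive and memory T cells, were named after their values were seen. Tcf7 was 3.29, 3.79 and 3.08 in islets and 3.63, 3.38 and 3.61 in spleen with 4-8. With 12-4.4m1 it was 5.61, 5.14 and 3.69 in islets and 3.91, 4.16 and 4.07 in spleen. Among these islet libraries with 12-4.4m1, those titled Treg were the 2 high ones. The Tcf7 interaction was -0.91 (limma adjusted p = 0.871), and its log2 ratio of FPKM ratios was -2.68. Without the 3 islet libraries titled Treg, which leaves the library at 3.69 alone for islets with 12-4.4m1, the Tcf7 interaction was 0.01. Klf2, the factor that drives expression of recirculation receptors, had -0.26 (limma adjusted p = 0.945), and the IL-7 receptor gene Il7r 0.40 (adjusted p = 0.914), which was -0.09 without the islet libraries titled Treg, again with 1 islet library left for 12-4.4m1.

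Genes induced early by the TCR were tested for 23 of 24 listed genes and AP-1 genes for 8 of 12, and none passed. The median islet-minus-spleen difference of the early genes was 1.11 with 4-8 and 1.16 with 12-4.4m1, and their median interaction was -0.11, with 17 of 23 below 0. For AP-1 the medians were 2.26 and 2.20. Nr4a1, an orphan nuclear receptor gene used as a reporter of TCR signal strength, was 8.08 to 8.61 in islets and 5.82 to 6.27 in spleen with 4-8, and 8.25 to 8.76 and 5.14 to 6.37 with 12-4.4m1. The Nr4a1 interaction was -0.55 ± 0.31 (SE, limma adjusted p = 0.905), was -0.24 without spleen 12-4.4m1 replicate 1 and -0.86 without spleen 12-4.4m1 replicate 3, and its log2 ratio of FPKM ratios was -0.52. Its relative Nr4a2 was on the other side, with 2.85 and 2.09 and an interaction of 0.76 (adjusted p = 0.871). Fosb, an AP-1 subunit gene, had 3.28 and 2.56 (adjusted p = 0.89). The median of 20 genes of the TCR complex and its proximal signalling was -0.07, with Ubash3b, a phosphatase that restrains TCR signalling, at 0.96 (adjusted p = 0.667). The anergy-linked genes Nfatc2 and Dgka had -0.52 and -0.55 (adjusted p = 0.871 each), and the 9 anergy-linked genes tested had a median of -0.23.

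Metabolic and proliferation genes gave no gene past the threshold. Glycolysis genes were above 0 in 10 of 14, with a median of 0.29; at an unadjusted p under 0.05 (2.99% of all genes toward 4-8) were Tpi1, the triose phosphate isomerase gene, at 0.92 and the glucose transporter gene Slc2a1 at 0.58. Cell cycle genes were above 0 in 17 of 20, with a median of 0.20 and none at an unadjusted p under 0.05. The replication gene Pcna was at 0.48 and the topoisomerase gene Top2a at 0.64. S100, annexin and galectin genes were above 0 in 12 of 15, with a median of 0.17, and Anxa2, a membrane-binding annexin gene, at 0.84 (limma adjusted p = 0.667). Proteasome genes had a median of 0.06 over 17 genes. Heat shock and dissociation-stress genes, of which 16 of 17 were tested, had a median islet-minus-spleen difference of 1.48 with 4-8 and 1.61 with 12-4.4m1 and a median interaction of -0.12. Genes of NF-kB subunits and feedback had a median of -0.08 over 15 genes, and IL-2 and STAT5 targets -0.22 over 15. Cytotoxic granule genes had a median of 0.25 over 7, with the granzyme gene Gzmb at -0.43. Members of a list share libraries, and lists were not tested as groups.

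**Figure D5:**
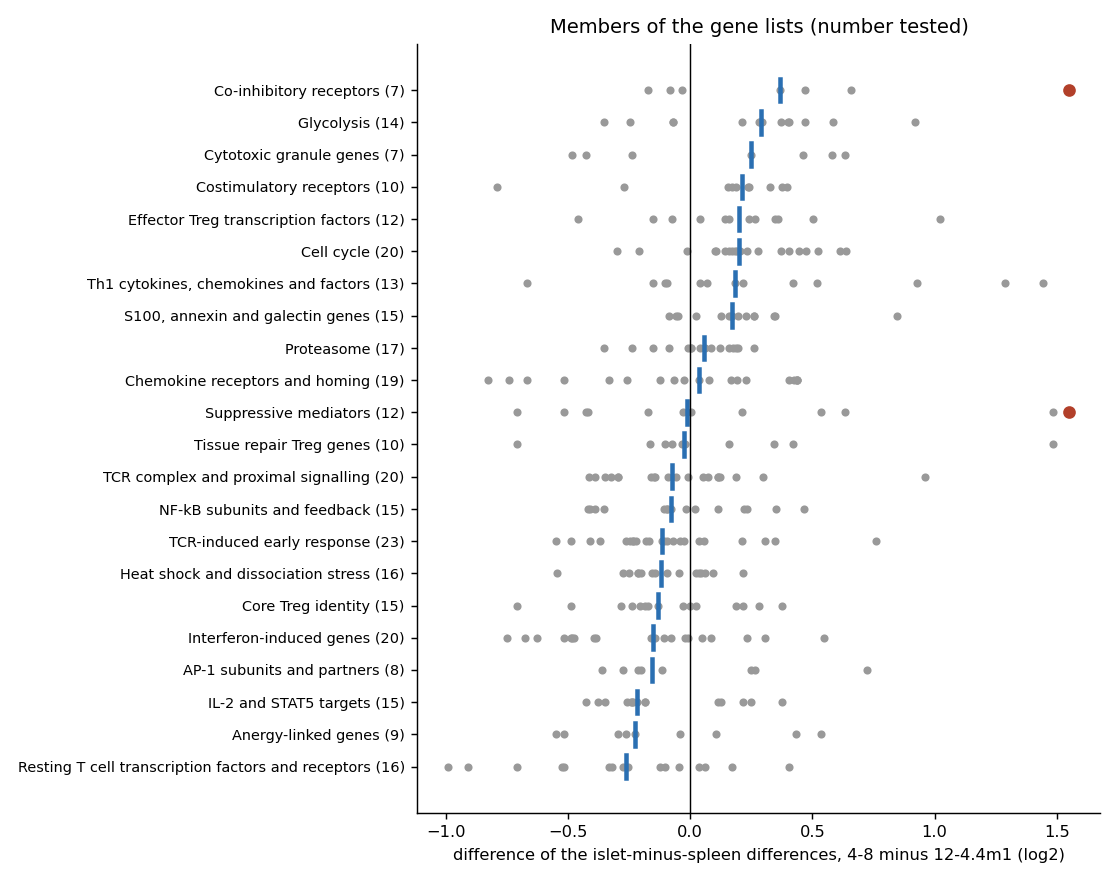
Interaction (log2, x axis) of every tested member of each gene list (grey points; number tested in brackets), with the list's median as a blue bar. Lag3, in red in both lists that hold it, is past an adjusted p of 0.05; the medians run from -0.26 for resting T cell genes to 0.37 for co-inhibitory receptors.

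The Treg label was met by its markers in all groups. All 6 Treg markers were tested, and their interactions ran from -0.17 to 0.37. Foxp3, the lineage factor, was 9.61, 9.93 and 9.63 in islets and 9.81, 9.77 and 9.76 in spleen with 4-8. It was 9.31, 9.04 and 9.36 in islets and 9.14, 8.95 and 9.36 in spleen with 12-4.4m1, and its interaction was -0.13 (95% interval -0.54 to 0.28). The log2 ratio of FPKM ratios was -0.15 for Foxp3. The 15 core Treg identity genes tested had a median of -0.13, and the 12 effector Treg transcription factor genes 0.20, with the aryl hydrocarbon receptor gene Ahr at 1.02 (limma adjusted p = 0.667) and Ikzf3 at -0.46 (adjusted p = 0.878).

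Of the markers of other cells, none of 14 endocrine, 10 B cell or 8 erythroid and platelet markers listed in the tables had a mean normalized count of 10 in both tables. Pancreatic acinar markers did for 7 of 20. The summed level (2 to the power of the rlog values) was taken over all acinar markers with a mean normalized count above 0. These were 17 markers with 4-8 and 18 with 12-4.4m1. The sum was 129 to 241 in islets and 91.2 to 100 in spleen with 4-8, and 230 to 293 and 115 to 127 with 12-4.4m1. Acinar transcripts were thus higher in islets with both TCRs, and the 7 tested had interactions from -0.33 to 0.31. The acinar marker Prss1 was listed at 0 in all libraries. The part of these transcripts in the interactions of other genes was not tested. Only 1 of 19 myeloid, 2 of 10 CD8 T and NK, 2 of 7 conventional CD4 T and 1 of 10 endothelial and stromal markers were tested, with interactions from -0.48 to 0.25. The female-expressed RNA Xist differed between libraries within groups, from 6.99 to 10.76 in the 4-8 table, and its interaction was 0.97 ± 0.88 (SE, limma adjusted p = 0.932). With the Xist level in the fit, Lag3 still passed (adjusted p = 0.0129).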

How the data were processed

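RNA was sequenced from 12 Treg libraries, 3 in each of 4 groups taken from the labels. Per the labels' protocols, sorted cells were lysed, and cDNA was amplified and tagmented with Nextera XT. The submitters' processing notes name TopHat 1.0.0, Cufflinks, STAR 1.1.0 and DESeq2 1.1.0 and the builds mm10 and GRCm38, with no role or order. The authors deposited, for each of 4 comparisons, log2 values (rlog) per library, a DESeq2 table with the mean normalized count over 6 libraries (a signal), the log2 fold change with its SE, the Wald statistic (a score) and the p-value, and a Cuffdiff table with FPKM per group. No raw count per library was used here, so the depth of a library is unknown. Mean normalized counts summed to 1284347 in the 4-8 tissue table and 918913 in the 12-4.4m1 table. In the authors' DESeq2 tissue tables the log2 fold change is spleen over islets, and its sign was turned here.

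From the rlog values of the 2 tissue tables, genes with a mean normalized count of at least 10 in both tables were kept; 4 rows with repeated symbols were left out. The islet values of each table were shifted so that the median islet-minus-spleen difference was 0 (medians before: -0.02 and 0.00). limma 3.58.1 (R 4.3.3; lmFit, eBayes with trend) fitted 4 group means, with 8 residual degrees of freedom per gene, and the interaction contrast, with Benjamini-Hochberg adjustment over all genes and a threshold of 0.05. The fit was tested on simulated data. Named genes were the 12 with the smallest p in each direction where fewer passed, leaving out predicted genes, 2 members per list by the same measure, and 10 chosen genes. A gene that this rule takes in is not reported here. The members and lists were chosen with earlier results of these data known. Positions are from GENCODE M21. Whether equal replicate numbers pair libraries was checked by the correlation of deviations from group means. Alternatives were the settings named in the closing section. Figures were drawn with matplotlib 3.10.9.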

Additional observations from a re-analysis of the deposited data

Results flagged for a closer look

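Lag3 differed between the TCRs in its islet-minus-spleen difference by a test of that difference: the interaction was 1.55 (limma adjusted p = 0.018). No other gene named in the report passed this test, and groups of 3 libraries were not examined for single libraries far from the rest.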

How the results depend on the processing

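The count of genes toward 4-8 was 1 and the count toward 12-4.4m1 was 0. Toward 4-8 the count was 5 with any mean normalized count above 0 (Lag3, Nos1, Slc37a2, Spp1 and Srgap3) and 2 with the title style in the fit (Lag3 and Plek). It was 0 in limma without trend, 0 without the 3 islet libraries titled Treg (1 islet library left for 12-4.4m1), 0 without the spleen libraries numbered 2 and 0 with equal interquartile ranges. Leaving out 1 library at a time gave 0 to 1 genes. Toward 12-4.4m1 the count was 1 (Hspa1a) with the difference of the fold changes in the authors' deposited DESeq2 tables, and 0 in the other fits. The cause of these changes was not tested. Equal replicate numbers were not taken to pair the libraries: the deviations of same-numbered libraries correlated from -0.13 to 0.19 over 18 library pairs, and from -0.13 to 0.04 over the 6 pairs of islets and spleen of 1 TCR. With a replicate block shared by all groups Lag3 passed (adjusted p = 0.00202), and with a replicate block within each TCR it passed too (adjusted p = 0.00427), and each of these fits called 1 gene. Among the named genes, 6 values changed sign, none of them past the threshold: Areg 0.0486 from FPKM, Fos 1.71 from the authors' deposited DESeq2 fold changes, Hspa1a 0.0097 without spleen 12-4.4m1 replicate 2 (from -0.3474 over the fits that left out 1 library), and Psmb10 0.0259, Il7r -0.0904 and Tcf7 0.0133 without the islet libraries titled Treg. The median SE of 0.26 limits what 3 libraries per group can show.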
